A study of Mus musculus with 21 samples.

Results

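The IFIT genes (interferon-induced proteins with tetratricopeptide repeats) were represented in the count table by Ifit1, Ifit2, Ifit3 and Ifit3b, that is 4 of 48474 rows and 4 of the 18248 genes that passed the filter on low counts. They were taken by symbol, and the family was selected for its difference between rNLS8 and wild-type mice in these libraries, so that difference is given as a description without a test. Bulk RNAseq was analyzed from the neocortex of 21 mice, of which 10 were labelled TG (rNLS8) and 11 WT. rNLS8 mice are bigenic and carry NEFH-tTA, a driver that is active in neurons, together with tetO-hTDP-43ΔNLS, a human TDP-43 without nuclear localization signal that is silent under doxycycline. The WT group consisted of control littermates described as monogenic, and the labels do not say which transgene a control carried. All 21 mice were 17 to 19 weeks old, had been injected into the cerebral ventricle with 350 µg (10 µL) of an antisense oligonucleotide that has no target, were kept on doxycycline chow (200 mg/kg) until 2 weeks after injection and were killed 3 weeks after the switch to normal chow, so no mouse was free of oligonucleotide or of former doxycycline exposure. The mice formed cohort A (4 wild-type, 3 rNLS8) and cohort B (7 wild-type, 7 rNLS8), which the labels list as batches A and B. The sex of each mouse was not given, and the tissue is called neocortex in the labels and cortex in the study's methods but hippocampus in a legend. Of neocortical genes, Tbr1 had 2642 ± 182 normalized counts in wild-type and 2476 ± 269 in rNLS8 mice (SD), and Cux2 had 2144 ± 275 and 1952 ± 259. Of dentate gyrus genes, Prox1, which interneurons of the neocortex also express, had 359 ± 90.7 and 394 ± 94.0 normalized counts, C1ql2 had 88.6 ± 64.2 and 60.2 ± 19.4, and Dsp had 21.1 ± 22.2 and 16.5 ± 9.58, and these counts are not corrected for transcript length.

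IFIT proteins are made by most cells after type I interferon has bound its receptor, which leads to the binding of a transcription factor complex with STAT2 and IRF9 to interferon-stimulated response elements. They are cytosolic RNA-binding proteins without enzymatic activity. IFIT1 binds RNA that ends in a triphosphate or in a cap without ribose methylation and keeps it from being translated, IFIT2 binds AU-rich double-stranded RNA and has been linked to apoptosis, and IFIT3 stabilizes human IFIT1 in a shared complex. In the brain, the family is known from viral infection and from interferon-responsive microglia.

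All 4 genes lie on the plus strand of chromosome 19 in GRCm38.p6, with Ifit2 at chr19:34550550-34576534, Ifit3 at chr19:34583119-34588982, Ifit3b at chr19:34607530-34613403 and Ifit1 at chr19:34640889-34650009. Their promoters are shown because the interferon pathway acts on them through a known motif. The sequences are from RefSeq (GRCm38.p6, plus strand) and end at the base before the transcript start used for the promoter, except that of Ifit1, which was cut on both sides to the stretch outside the exons of GENCODE M21. For Ifit2, Ifit3 and Ifit3b this start lies inside the gene span given above, which begins further upstream. Capitals mark matches to GAAANNGAAA or, on the other strand, TTTCNNTTTC, the core of the interferon-stimulated response element, in which N is any base. They span chr19:34550444-34550693 (Ifit2), chr19:34583279-34583528 (Ifit3), chr19:34607707-34607956 (Ifit3b) and chr19:34640744-34640870 (Ifit1).
Ifit2: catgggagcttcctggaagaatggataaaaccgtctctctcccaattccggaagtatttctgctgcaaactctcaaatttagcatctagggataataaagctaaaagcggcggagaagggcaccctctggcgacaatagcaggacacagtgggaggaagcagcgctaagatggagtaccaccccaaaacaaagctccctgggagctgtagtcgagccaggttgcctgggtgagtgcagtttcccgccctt
Ifit3: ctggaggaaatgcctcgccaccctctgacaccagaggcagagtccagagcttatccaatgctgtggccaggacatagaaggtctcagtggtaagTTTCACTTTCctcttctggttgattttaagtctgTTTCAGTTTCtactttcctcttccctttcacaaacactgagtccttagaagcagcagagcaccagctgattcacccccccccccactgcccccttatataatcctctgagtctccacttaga
Ifit3b: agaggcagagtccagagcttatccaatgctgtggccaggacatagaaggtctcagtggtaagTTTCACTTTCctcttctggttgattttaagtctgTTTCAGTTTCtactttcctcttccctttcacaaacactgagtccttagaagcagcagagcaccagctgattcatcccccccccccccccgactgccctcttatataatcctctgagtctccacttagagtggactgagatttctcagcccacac
Ifit1: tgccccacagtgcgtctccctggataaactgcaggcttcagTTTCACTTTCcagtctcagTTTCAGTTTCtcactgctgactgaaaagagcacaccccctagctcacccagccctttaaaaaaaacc

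Ifit1, Ifit3 and Ifit3b each had 2 matches in the 250 bases before the start, and none of the matches overlapped. The first bases of the matches were 104 and 85 bases before the start of Ifit1, 156 and 122 bases before that of Ifit3, and 188 and 154 bases before that of Ifit3b. Ifit2 had no match in this window or in the window of its second annotated start, which says only that these letters were not found there. Among all 32851 promoter windows of the same length, 2.98% held at least 1 match and 0.18% held 2 or more. The promoters of Ifit3 and Ifit3b were identical at 216 of 218 aligned bases (99.1%), while those of Ifit1 and Ifit2 were identical at 51.9% of the aligned bases. Both matches of Ifit1 were also within the promoter window of Ifit1bl2, a related gene on the other strand whose transcript start used for the promoter (34640743) was separated from that of Ifit1 by 145 bases. The annotated span of Ifit1bl2 reaches further, to 34640827, and thus covers both matches. Ifit1bl1, a further related gene on the minus strand, had 1 match in each of its 2 windows. These matches describe the sequence and do not show that a factor bound there.

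The members differ in how well their reads can be told apart. The coding sequences of Ifit3 and Ifit3b were both 1209 bases long and identical at 1198 positions (99.1%). Of all stretches of 100 bases in the Ifit3 transcript, which is the read length of these libraries, 31.7% occurred without mismatch in Ifit3b as well, and 27.4% of those in Ifit3b occurred in Ifit3. The split of reads between this pair is therefore uncertain, since it depends on how reads with several matches were assigned. No such stretch was shared among Ifit1, Ifit2 and Ifit3, and the coding identity of Ifit1 and Ifit2 was 59.2%. Ifit1 shared 3.29% of its stretches with Ifit1bl2.

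All 4 members were higher in rNLS8 mice, between 2.10-fold for Ifit2 and 8.21-fold for Ifit1. In the edgeR fit over all genes, 4 of 4 members were called higher, compared with 23.0% of all tested genes called higher and 21.7% called lower. With scaling by library size only, the calls over all genes were split differently, with 67.9% of them higher in place of 51.4%. Every rNLS8 mouse was above every wild-type mouse in 4 of 4 members and in 3.85% of all tested genes. As the family was chosen on this contrast, nothing is read from these counts. In bulk tissue, a different number of cells expressing a gene and a different amount of RNA per cell cannot be told apart.

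Ifit1, which retains foreign 5′ ends of RNA, had the lowest wild-type counts of the family. In 11 wild-type mice, the normalized count of Ifit1 was 31.1 at the lowest, 40.4 at the median and 70.5 at the highest (mean 43.8 ± 12.1 SD). In 10 rNLS8 mice, it was 136 at the lowest, 344 at the median and 757 at the highest (mean 360.1 ± 166 SD). The groups did not overlap, and the lowest rNLS8 mouse was 1.93-fold above the highest wild-type mouse. The log2 fold change was 3.04 ± 0.21 (SE). The raw counts behind the wild-type values were only 30 to 72 reads per mouse, so that counting error adds to their spread.

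Ifit2, whose product binds double-stranded RNA, had the smallest difference and the least variable wild-type level. The normalized count of Ifit2 in wild-type mice was 207 at the lowest, 244 at the median and 292 at the highest (mean 243 ± 23.7 SD, n = 11). In rNLS8 mice, it was 384 at the lowest, 528 at the median and 777 at the highest (mean 511 ± 122 SD, n = 10). The groups were separated by a factor of 1.31 between the highest wild-type and the lowest rNLS8 mouse, the narrowest gap of the 4 members. The log2 fold change of Ifit2 was 1.07 ± 0.10 (SE), and 251 of the 18248 tested genes were called with a log2 fold change above 1.

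Ifit3, the partner of IFIT1 in the human complex, reached the highest counts of the family in rNLS8 mice. Its normalized count was 137 at the lowest, 188 at the median and 265 at the highest in wild-type mice (mean 198 ± 42.0 SD, n = 11). In rNLS8 mice, it was 539 at the lowest, 1214 at the median and 2838 at the highest (mean 1332 ± 667 SD, n = 10). Again no rNLS8 mouse fell into the wild-type range, although the rNLS8 mice also differed among themselves. The log2 fold change of Ifit3 was 2.73 ± 0.19 (SE), a 6.64-fold difference.

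Ifit3b, the near-identical neighbour of Ifit3, showed the same pattern at lower counts. The normalized count of Ifit3b was 96.0 at the lowest, 124 at the median and 169.6 at the highest in wild-type mice (mean 126 ± 22.1 SD, n = 11). In rNLS8 mice, it was 336 at the lowest, 674 at the median and 1590.5 at the highest (mean 753 ± 354 SD, n = 10). The groups did not overlap here either. The log2 fold change of Ifit3b was 2.57 ± 0.17 (SE), a 5.92-fold difference. After the reads of Ifit3 and Ifit3b had been added up, which removes the uncertain split between them, the log2 fold change of the sum was 2.67 ± 0.18 (SE).

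**Figure D1:**
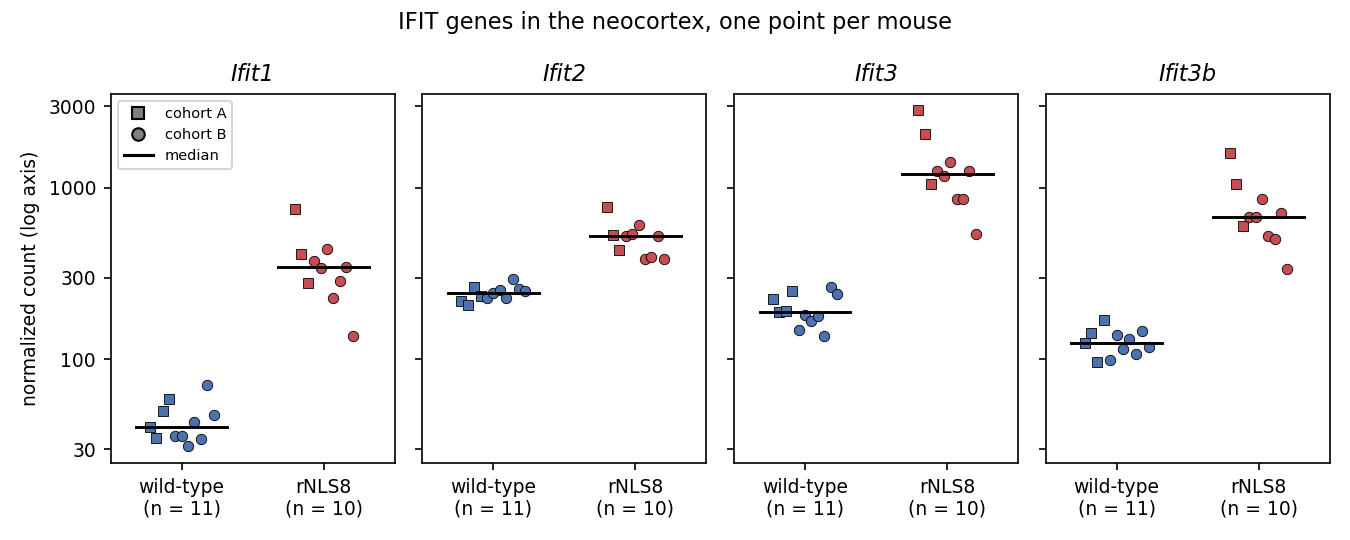
Normalized counts of the 4 IFIT genes on a log axis, with a point per mouse (squares, cohort A; circles, cohort B) and a bar at the median of each genotype. All rNLS8 points lie above all wild-type points in each panel, with the narrowest gap for Ifit2 (384 against 292) and rNLS8 ranges of 136 to 757 for Ifit1 and 539 to 2838 for Ifit3.

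The variation among rNLS8 mice was shared by the family. Mouse T_60303 of cohort A had the highest normalized count of all 4 members among the rNLS8 mice (757 for Ifit1 and 2838 for Ifit3). Mouse T_70267 of cohort B had the lowest count of all 4 members (136 for Ifit1 and 539 for Ifit3). On the log2 scale, the SD among rNLS8 mice was 0.64 for Ifit1, 0.33 for Ifit2, 0.67 for Ifit3 and 0.61 for Ifit3b. Among wild-type mice it was 0.35, 0.14, 0.30 and 0.25 in the same order. Neither mouse stood beyond Dixon's critical value in any member, with a largest gap of 0.346 of the range for mouse T_60303 at Ifit2.

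Within the 10 rNLS8 mice, the cohort-centred log2 CPM of the members rose and fell together. Pearson's r was between 0.90 (Ifit1 and Ifit2) and 0.99 (Ifit3 and Ifit3b), the latter pair sharing reads. In the 11 wild-type mice, r was between -0.35 (Ifit2 and Ifit3b) and 0.80 (Ifit1 and Ifit3). These values describe 10 and 11 libraries, in which depth and tissue composition are common to all genes, and they carry no test.

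The label check by the targeted gene was incomplete. Tardbp, the mouse counterpart of the transgene, had normalized counts of 2253 to 2827 in wild-type mice, 4405 to 5053 in rNLS8 mice of cohort B and 2363 to 3091 in rNLS8 mice of cohort A, and how many reads of the human transgene entered this row is not known. The Tardbp count of rNLS8 mouse T_61340 (2363) was within the wild-type range. This mouse labelled TG had 413 normalized counts of Ifit1, 2064 of Ifit3 and 1051 of Ifit3b, the third or second highest values among rNLS8 mice, and rank 4 for Ifit2. Without it, the log2 fold changes were 3.05 for Ifit1, 1.07 for Ifit2, 2.69 for Ifit3 and 2.54 for Ifit3b. Without mouse T_60303, they were 2.86, 0.98, 2.59 and 2.42 in the same order.

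Within each cohort, the members were also higher in rNLS8 mice. In cohort B, the log2 fold change was 2.84 ± 0.23 for Ifit1, 0.94 ± 0.10 for Ifit2, 2.47 ± 0.19 for Ifit3 and 2.31 ± 0.17 for Ifit3b (± SE, 7 against 7 mice). In cohort A, it was 3.41 ± 0.32, 1.35 ± 0.18, 3.24 ± 0.27 and 3.05 ± 0.29 in the same order (± SE, 4 wild-type and 3 rNLS8 mice). Every estimate was larger in cohort A, the cohort in which rNLS8 mice had the lower Tardbp counts.

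Whether the effect of genotype differed between cohorts was tested by the interaction of genotype and cohort, which the choice of the family did not use. The difference of the log2 fold changes (cohort A minus cohort B) was 0.54 ± 0.44 for Ifit1, 0.38 ± 0.21 for Ifit2, 0.74 ± 0.36 for Ifit3 and 0.70 ± 0.34 for Ifit3b (± SE). None passed the threshold, with edgeR adjusted p = 0.878 for Ifit1 and 0.875 for the other members. Across all genes, edgeR called 0 of 18248 interactions (0%), with 1030 at an unadjusted p under 0.05, and DESeq2 called 1, which was Tardbp (log2 difference -0.57 ± 0.10 SE, adjusted p = 0.000338) and is named here after its value was seen. Single mice moved these differences by over 1.5 times. Without mouse T_60303, they were between 0.060 (Ifit1) and 0.39 (Ifit3), and without mouse T_61342 they were 0.82 for Ifit1, 0.55 for Ifit2, 1.04 for Ifit3 and 0.99 for Ifit3b.

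In wild-type mice alone, the cohorts were compared to see whether the baseline of the family moved. The log2 difference of cohort A over cohort B was 0.11 ± 0.34 for Ifit1, -0.11 ± 0.15 for Ifit2, 0.18 ± 0.26 for Ifit3 and 0.12 ± 0.25 for Ifit3b (± SE). None of the members passed, with edgeR adjusted p between 0.717 and 0.892, while 6.49% of all genes did (1184 of 18248). That last count depended on single mice, with 466 genes without wild-type mouse T_61331, 762 without T_61333 and 778 without T_70262. The small differences of Ifit1 and Ifit3b changed sign without wild-type mouse T_61345 (-0.030 and -0.018).

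**Figure D2:**
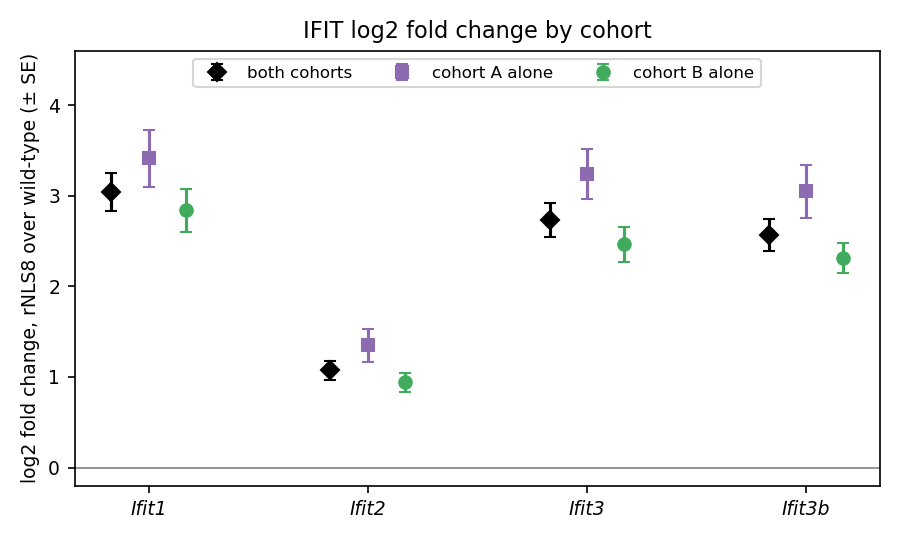
Log2 fold change of rNLS8 over wild-type mice (± SE) for the 4 IFIT genes in both cohorts together (diamonds), in cohort A (squares) and in cohort B (circles). Cohort A lies above cohort B for each gene (3.41 against 2.84 for Ifit1), and none of these differences passed the test of interaction.

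Levels of different genes were compared per kilobase of the longest transcript tagged as basic in GENCODE M21 (2656 bases for Ifit1, 3818 for Ifit2, 1745 for Ifit3 and 2000 for Ifit3b). The summed IFIT level was 12.015 ± 1.63 CPM per kb (SD, n = 11) in wild-type and 66.0 ± 30.3 CPM per kb (SD, n = 10) in rNLS8 mice. It ranged from 9.71 to 14.9 CPM per kb in wild-type mice and from 29.4 to 136 in rNLS8 mice, so that the ranges were apart. In every mouse of both genotypes, Ifit3 had the highest level per kb. In wild-type mouse T_70260 it was close to that of Ifit2 (3.68 and 3.59 CPM per kb). The levels of Ifit3 and Ifit3b rest on the uncertain split of reads between them.

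The make-up of this sum differed between genotypes. Ifit2 was 25.2% ± 4.40 of the sum in wild-type and 10.3% ± 2.49 in rNLS8 mice (SD), with ranges of 19.6% to 34.6% and 6.93% to 16.0% that did not overlap. Ifit3 was 43.8% ± 4.08 in wild-type and 53.4% ± 2.68 in rNLS8 mice, and the ranges touched at the border (highest wild-type 49.2%, lowest rNLS8 49.1%). The share of Ifit1 was 6.36% ± 1.04 and 9.63% ± 1.09, and that of Ifit3b was 24.6% ± 2.84 and 26.7% ± 0.736. Below Ifit3, the order per kb was not fixed, as Ifit3b was above Ifit2 in 6 of 11 wild-type mice and Ifit2 above Ifit3b in 5. In rNLS8 mice Ifit3b was second throughout, and Ifit1 (6.35 ± 2.92 CPM per kb) and Ifit2 (6.27 ± 1.49) did not differ beyond their spread, with each above the other in 5 of 10 mice. The ratio of Ifit3 to Ifit3b per kb was 1.81 ± 0.321 in wild-type and 2.002 ± 0.124 in rNLS8 mice, and it depends on that uncertain split of reads.

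**Figure D3:**
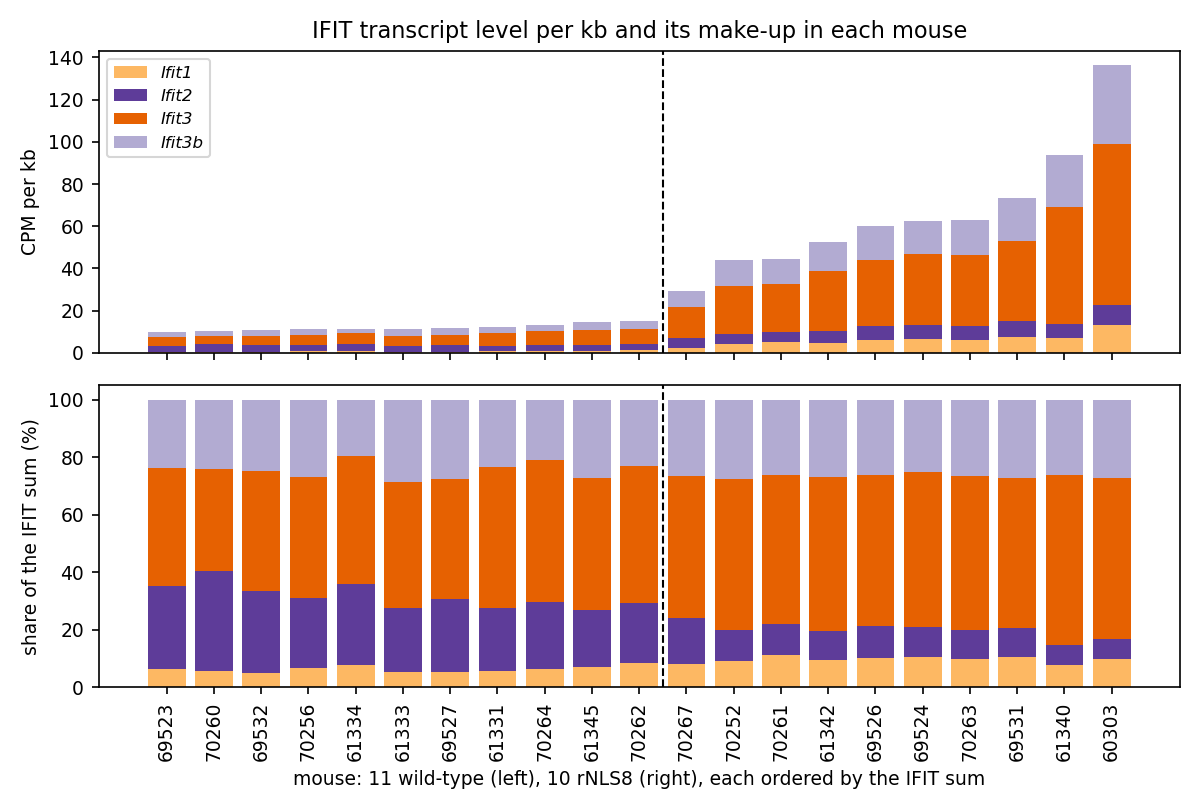
IFIT transcript level per kb in each mouse (top, stacked CPM per kb) and the share of each gene in the IFIT sum (bottom, percent), with wild-type mice to the left of the dashed line and mice ordered by the sum. The sum is 9.71 to 14.9 CPM per kb in wild-type and 29.4 to 136 in rNLS8 mice, and the share of Ifit2 is smaller in all rNLS8 mice (6.93% to 16.0%) than in any wild-type mouse.

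The genes around the family in the interferon pathway were then tested, using 11 lists of 109 genes chosen with earlier results of these data known. Of 85 genes tested, 48 were higher in rNLS8 mice (56.5%, compared with 23.0% of all tested genes) and 9 were lower (10.6%, compared with 21.7%) in edgeR. The median log2 fold change was 0.30, compared with -0.00067 over all tested genes. Every rNLS8 mouse was above every wild-type mouse in 29 of these genes (34.1%, compared with 3.85% of all tested genes). Some of the higher genes, such as Zbp1 and Mx1, passed the filter on low counts only through rNLS8 mice. Over the alternatives to this fit, 37 to 57 pathway genes were higher.

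The interferons themselves were hardly seen. The 21 interferon genes of types I, II and III had 3 counts in all wild-type mice together and 7 in all rNLS8 mice, 15 of them had no count in any mouse, and none could be tested. Ifnb1, which encodes interferon beta, had 0 counts in wild-type and 1 count in rNLS8 mice. A gene with 0 counts may still be present at up to 0.0129 CPM in the wild-type or 0.0139 CPM in the rNLS8 libraries together (3 counts), and at such totals a difference between genotypes was not detectable at this depth.

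Among the receptors, 3 of 5 tested genes were higher and none was lower (23.0% and 21.7% over all genes), with a median log2 fold change of 0.26. Ifngr2 and Ifngr1, the chains of the interferon gamma receptor, rose by 0.78 ± 0.046 and 0.31 ± 0.054 on the log2 scale (± SE, edgeR adjusted p = 3.43e-12 and 4.12e-05). Ifnar2 of the type I receptor rose by 0.26 ± 0.056 (edgeR adjusted p = 0.000514). Its partner chain Ifnar1 had 937 ± 42.2 normalized counts in wild-type and 924 ± 36.3 in rNLS8 mice (SD) and did not pass (edgeR adjusted p = 0.629), nor did Il10rb (log2 fold change 0.062 ± 0.071, edgeR adjusted p = 0.510).

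Irf9 and Stat2, which act downstream of the receptors, were higher. Irf9 rose by 1.84 ± 0.11 and Stat2 by 0.65 ± 0.11 on the log2 scale (± SE, edgeR adjusted p = 5.33e-12 and 2.27e-05). The value of Stat2 was 1.06 in cohort A and 0.44 in cohort B alone. Of the receptor kinases, Jak1 decreased by 0.14 ± 0.045 (edgeR adjusted p = 0.0126), and Jak2 (-0.064 ± 0.043) and Tyk2 (-0.041 ± 0.12) did not pass. The call of Jak1 was lost with scaling by library size only (-0.065, adjusted p = 0.217) and in cohort A alone (-0.14, adjusted p = 0.486). Of 6 interferon regulatory factors, 3 were higher (23.0% over all genes), led by Irf7, the amplifier of interferon transcription, with a log2 fold change of 3.21 ± 0.20 (edgeR adjusted p = 6.27e-12). Irf8, a myeloid factor, rose by 0.70 ± 0.11 (1.08 in cohort A and 0.50 in cohort B alone) and Irf1 by 0.35 ± 0.095, whereas Irf5 (0.22 ± 0.10) and Irf3 (0.096 ± 0.079) did not pass.

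Of 13 sensors and adaptors of nucleic acids, 6 were higher, 1 was lower and 6 did not pass (median 0.33), compared with 23.0% called higher and 21.7% called lower over all genes. The largest difference was that of Zbp1, a sensor of Z-form nucleic acids (log2 fold change 3.49 ± 0.30, edgeR adjusted p = 1.48e-09), from 3.00 ± 2.13 normalized counts in wild-type mice to 34.8 ± 17.7 in rNLS8 mice (SD). With 32 counts in all wild-type mice together, Zbp1 passed the filter on low counts only through rNLS8 mice. Dhx58 (1.67 ± 0.17) and Ddx58 (1.47 ± 0.11), which encode the RNA helicases LGP2 and RIG-I, and Trim25 (0.98 ± 0.11), a ubiquitin ligase of that pathway, rose as well. Tlr9 (0.38 ± 0.18) and Cgas (0.33 ± 0.16) did not pass, although both did with scaling by library size only (adjusted p = 0.0386 and 0.0396) and in 3 and 2 of 21 fits without a mouse. Of 7 genes that restrain the signal, Usp18 (2.97 ± 0.22), which blocks the receptor chain IFNAR2, and the phosphatase gene Ptpn6 (0.65 ± 0.10) rose, while Ptpn11 (-0.15 ± 0.040) and Socs3 (-0.28 ± 0.11, edgeR adjusted p = 0.0425) fell. The call of Socs3 was lost with DESeq2 (adjusted p = 0.0562) and in 11 of 21 fits without a mouse, in each cohort alone, without the filter and with scaling by library size. The call of Ptpn11 was lost with scaling by library size only (-0.078, adjusted p = 0.0996) and in cohort A alone (-0.20, adjusted p = 0.230). Pias4 (0.080 ± 0.054) and Pias1 (0.050 ± 0.049) did not pass.

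Most tested genes of other effector families of the interferon response were higher in rNLS8 mice, compared with 23.0% of all genes. Of 8 genes tested in the list of oligoadenylate synthetases, which sense double-stranded RNA, and related genes, 6 were higher, including Oas1b (log2 fold change 3.25 ± 0.31), Oasl2 (3.14 ± 0.19), Oas1a (2.69 ± 0.20) and Oasl1 (2.68 ± 0.27), whereas Oas1c (0.024 ± 0.14) did not pass. Oas1b and Oasl1 had only 51 and 57 counts in all wild-type mice together and passed the filter on low counts only through rNLS8 mice. All 5 genes of the ISG15 system were higher, led by the modifier gene Isg15 (3.17 ± 0.20), its protease gene Usp18 and the conjugating enzyme genes Uba7 (0.97 ± 0.15) and Ube2l6 (0.69 ± 0.10). Of 14 further effectors, 13 were higher, including the GTPase genes Mx1 (3.23 ± 0.31) and Mx2 (2.65 ± 0.23), the tetherin gene Bst2 (2.58 ± 0.16) and Ifi44 (2.51 ± 0.24). The exception was Adar, which encodes an RNA-editing enzyme with an interferon-inducible isoform (-0.023 ± 0.046, edgeR adjusted p = 0.722). Mx1, Mx2 and Ifi44 had only 43, 115 and 146 counts in all wild-type mice together, so the size of their differences is less certain. The log2 fold change of Mx1 ranged from 2.582 to 4.596 over the alternatives to this fit.

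The genes for the RNA ends that IFIT1 reads were then examined. Of 8 genes of cap formation, cap methylation and decay, none was called higher, 2 were lower and 6 did not pass, with a median log2 fold change of -0.025 (over all genes, 23.0% were called higher and 21.7% lower). Ramac, the activating subunit of the cap methyltransferase, fell by 0.37 ± 0.049 on the log2 scale, and Rngtt, the capping enzyme, fell by 0.30 ± 0.059 (edgeR adjusted p = 1.15e-06 and 0.000170). Cmtr1, the enzyme that methylates the first cap nucleotide and is itself known as interferon-inducible, had 79.9 ± 16.6 normalized counts in wild-type and 65.9 ± 7.53 in rNLS8 mice (SD) with edgeR adjusted p = 0.0524. It passed as lower under 4 of 10 alternatives (adjusted p = 0.0457 to 0.0481) and in 6 of 21 fits without a mouse, and Dusp11 (0.17 ± 0.11) did not pass.

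Reported binding partners of IFIT proteins, mostly subunits of the translation factor eIF3, were tested as well. Of 17 genes, 8 were higher, 4 lower and 5 did not pass (median 0.13), compared with 23.0% called higher and 21.7% called lower over all genes. The largest were Eif3c (log2 fold change 0.31 ± 0.060), Eif3h (0.30 ± 0.049), Eif3l (0.27 ± 0.050) and Eif3f (0.25 ± 0.054), all called higher in edgeR over all genes. Sting1 (0.21 ± 0.11) and Eif3d (-0.060 ± 0.056) did not pass.

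**Figure D4:**
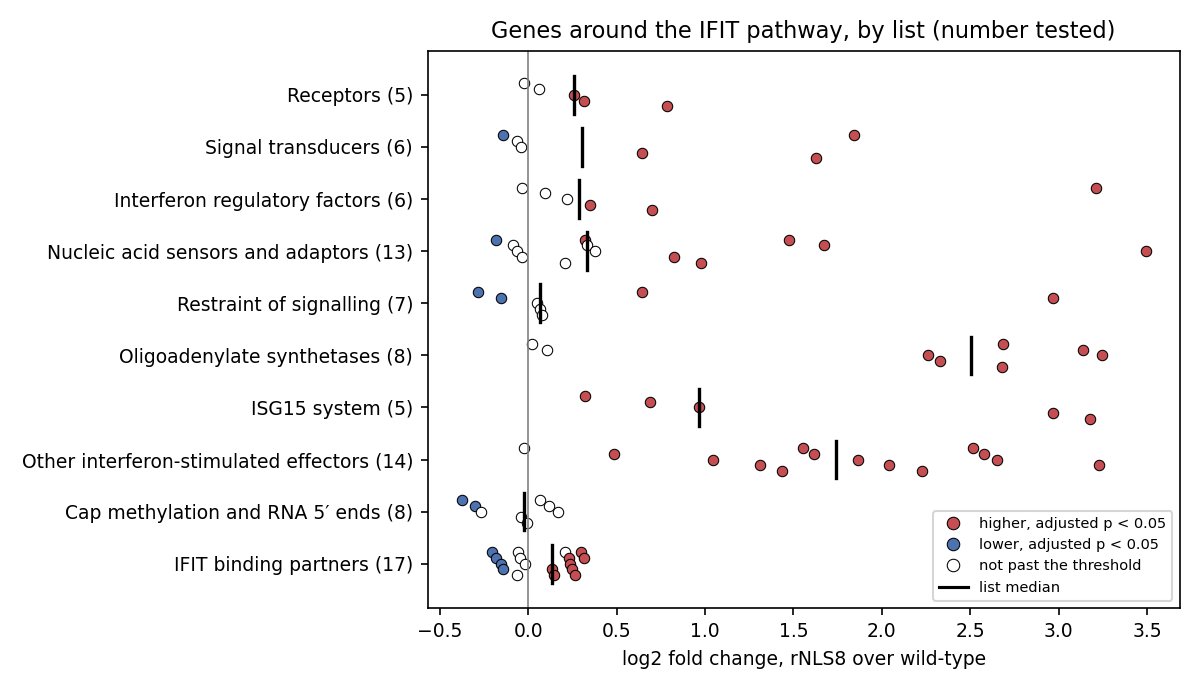
Log2 fold change of rNLS8 over wild-type mice for the tested genes of 10 pathway lists, with a point per gene (filled, past the threshold; open, not past it) and a bar at each list median. The medians are 2.50 for the oligoadenylate synthetases and 1.74 for other effectors, but -0.025 for cap methylation and 0.13 for the binding partners.

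The neighbours on the chromosome were then examined. Within 500 kb of the family lay 23 other annotated genes, of which 9 were tested, 2 were higher, 1 was lower and 6 did not pass, compared with 23.0% called higher and 21.7% called lower over all genes. The related genes within the cluster had low counts, with 55.7 ± 6.34 normalized counts of Ifit1bl1 in wild-type and 58.2 ± 7.87 in rNLS8 mice (log2 fold change 0.051 ± 0.086, edgeR adjusted p = 0.662). Ifit1bl2, the neighbour of Ifit1 on the other strand, had 15.2 ± 3.79 and 18.5 ± 4.21 normalized counts (log2 fold change 0.27 ± 0.17, edgeR adjusted p = 0.187). The annotated span of Ifit1bl1 on the minus strand overlaps Ifit3b, Ifit1bl2 and Ifit1, and whether counting used the strand is not stated, so reads of overlapping exons cannot be told apart.

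Outside the cluster, Kif20b, a mitotic kinesin, rose from 10.99 ± 2.94 to 21.6 ± 4.47 normalized counts (log2 fold change 0.96 ± 0.16, edgeR adjusted p = 2.28e-05), with a log2 fold change of 1.56 in cohort A and 0.68 in cohort B alone. Fas, the death receptor, rose by 0.53 ± 0.17 on the log2 scale (edgeR adjusted p = 0.0121), but it did not pass in cohort A (log2 fold change 1.05, adjusted p = 0.0569) or cohort B alone (0.26, adjusted p = 0.234). Pank1, a kinase of coenzyme A synthesis, decreased by 0.20 ± 0.049 (edgeR adjusted p = 0.00187), and by 0.12 with scaling by library size only. The nearest tested genes on either side of the cluster, Lipa (0.094 ± 0.054) and Slc16a12 (0.22 ± 0.14), did not pass, and neither did Stambpl1 (0.11 ± 0.062) and Acta2 (-0.11 ± 0.12).

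**Figure D5:**
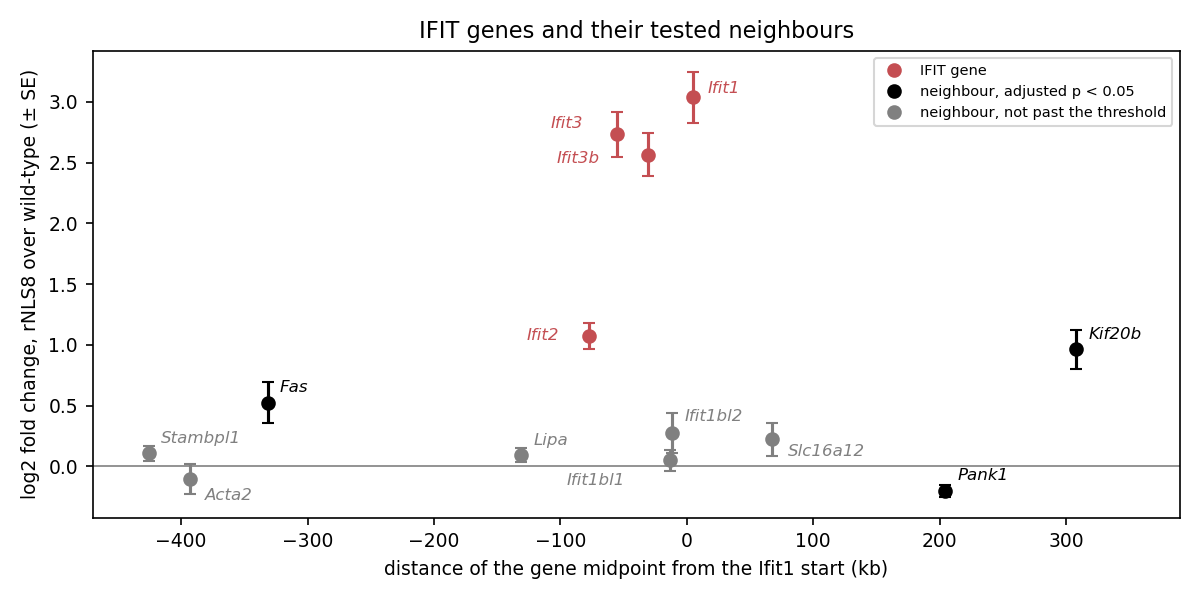
Log2 fold change of rNLS8 over wild-type mice (± SE) for the IFIT genes (red) and the 9 other tested genes within 500 kb, plotted against the distance of each gene's midpoint from the start of Ifit1. Ifit1bl1 (0.051) and Ifit1bl2 (0.27) lie among the members, which are between 1.07 and 3.04, and did not pass the test.

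The genes most like the family across the 10 rNLS8 mice were then ranked. Likeness was the mean of Pearson's r to the 4 members, computed for 14580 genes with a mean of at least 50 counts, its median over these genes was -0.065, and 25 genes were over 0.9, of which the first 10 are named. The highest value was that of Gbp3 (r = 0.96), followed by Gbp6 (0.95), Gbp10 (0.94), Eif2ak2 (0.93), the row Irgm1-3 (0.93), Rtp4 (0.93), Bst2 (0.93), Ddx58 (0.93), Smim4 (0.93) and the row Tgtp2-2 (0.92). Gbp3, Gbp6 and Gbp10 encode guanylate-binding proteins, and Eif2ak2 the RNA-dependent kinase PKR. The log2 fold change of Smim4 between genotypes was 0.035 ± 0.082 (SE, edgeR adjusted p = 0.766), whereas Gbp3 rose by 2.12 ± 0.14 and Gbp10 by 3.06 ± 0.21. With 10 mice and so many genes high values arise at the top of the ranking, and without mouse T_60303 Gbp3 kept rank 1 while the other 9 moved to ranks between 4 and 27, with Irgm1-3 at 22, Rtp4 at 25 and Smim4 at 27. In the 11 wild-type mice, the same mean r of these 10 genes was between -0.24 (Gbp10) and 0.49 (Ddx58), positive for 7 and negative for Gbp6, Gbp10 and Eif2ak2.

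Cell type markers were measured beside these differences. Of 8 microglia markers, 5 were higher and 1 (P2ry12, log2 fold change -0.35 ± 0.058) was lower in rNLS8 mice, with a median log2 fold change of 0.16 (over all genes, 23.0% were called higher and 21.7% lower). Their summed level was 345 to 392 CPM in wild-type and 366 to 503 CPM in rNLS8 mice. Mouse T_60303, highest in all IFIT genes, also had the highest microglial sum (503 CPM), mouse T_61340 the second highest (455 CPM), and mouse T_70267, lowest in all IFIT genes, had the lowest (366 CPM). The order was not the same throughout, as mouse T_70252 had the third highest microglial sum (428 CPM) but rank 8 or 9 of 10 in the IFIT genes. The summed astrocyte markers were also highest in mouse T_60303 (1618 CPM) and lowest in T_70267 (1079 CPM) among rNLS8 mice, and the summed neuronal markers were lowest in T_60303 (3844 CPM). Mouse T_61340, with rank 2 to 4 in the IFIT genes, had the second lowest astrocyte sum (1146 CPM) and the highest neuronal sum (5046 CPM), and the neuronal sum of T_70267 (4422 CPM) had rank 8. The part of microglia, astrocytes and neurons in the IFIT difference was not tested. Of 6 astrocyte markers, Gfap was higher (1.03 ± 0.11) and 4 were lower, and 4 of 6 neuronal markers were lower. No marker of border macrophages passed (0 of 4, summed 5.18 to 9.96 CPM in wild-type and 6.01 to 12.3 CPM in rNLS8 mice). T cell markers were near 0, with 36 counts in all wild-type and 61 in all rNLS8 mice.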

How the data were processed

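Per the labels, mRNA of 21 neocortex samples was sequenced in read pairs. The table that the authors deposited holds raw counts, not normalized, with 20700912 to 22263809 counts per mouse. As reads had no molecular identifiers, a limit of 3 counts covers the error of counting alone. Reads were aligned to GRCm38. The submitters' processing notes name HISAT, HISAT2, Bowtie, Bowtie2 and RSEM without their roles, and the program for counting and its use of strand are not given in the sources used here. Further copy rows (2553, such as Irgm1-3) were kept, and no IFIT gene had any.

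Counts were analyzed with edgeR 4.0.16 in R 4.3.3 after filtering (minimum count 10), TMM normalization and fitting of genotype and cohort. The quasi-likelihood test was two-sided and adjusted by Benjamini-Hochberg over 18248 genes (threshold 0.05), and the SE was the log2 fold change over the square root of F. Normalized counts were scaled to the mean effective library size, and CPM used the effective library size as well. Log2 CPM had a prior count of 2. Separate mice were the replicates. Promoters were from RefSeq (GRCm38.p6) and transcripts from GENCODE M21, read with Biopython 1.88.

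The members and all gene lists were chosen with earlier results of these data known. Besides the members, the text names the IFIT relatives and neighbours tested within 500 kb, from each list up to 4 genes with the largest change past the threshold and up to 2 with the smallest p that missed it, and the 10 genes most like the members, in addition to cell type markers and Tardbp. A few genes named by this rule were left out of the text. As alternatives, DESeq2 1.42.0 (including or omitting cohort), edgeR omitting cohort, scaling to library size or upper quartile, omission of the filter, a minimum of 10 counts in all mice, single cohorts, removal of copy rows, the sum of Ifit3 and Ifit3b, and removal of each mouse were used.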

Additional observations from a re-analysis of the deposited data

How the results depend on the processing

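The log2 fold changes of the 4 members stayed positive without each of the 21 mice in turn (2.86 to 3.16 for Ifit1, 0.98 to 1.11 for Ifit2, 2.59 to 2.81 for Ifit3 and 2.42 to 2.64 for Ifit3b) and under the other alternatives tried (2.84 to 3.41, 0.94 to 1.35, 2.47 to 3.24 and 2.31 to 3.05 in the same order). In cohort A alone, Ifit2 (1.35) and Ifit3b (3.05) moved by slightly more than the SD pooled over both genotypes, and only 2195 genes were called in place of 8154. The count of lower pathway genes was 3 with scaling by library size only and 1 in cohort A alone, in place of 9, and in cohort A alone Ifngr1, Ifnar2, Irf1, Rngtt, Eif3c, Eif3h, Eif3l, Eif3f and Pank1 did not pass either. Of these genes, Eif3h had a smaller log2 fold change in cohort A alone (0.26) than in both cohorts together. For the others it was larger in size, such as Ifngr1 (0.40) and Pank1 (-0.28). DESeq2 called 1 interaction and leaving out a mouse 0 to 1, in place of 0. Between wild-type cohorts, 789 genes were called without filter and 466 to 1645 without a mouse, in place of 1184, and the difference ranged from -0.030 to 0.28 for Ifit1, -0.18 to -0.056 for Ifit2, 0.092 to 0.28 for Ifit3 and -0.018 to 0.25 for Ifit3b without a mouse. The causes were not tested.

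With scaling by library size only, Tlr9, Cgas, Irf5, Pias4, Pias1, Sting1, Lipa and Stambpl1 passed as higher, and Irf5 (2 fits), Tlr9 (3), Cgas (2) and Stambpl1 (1) also passed without single mice. Small differences that had not passed changed sign with scaling by library size only (Ifnar1 0.054, Jak2 0.013, Tyk2 0.038, Adar 0.054, Eif3d 0.016), in cohort A alone (Adar 0.090, Eif3d 0.037, Acta2 0.087, Slc16a12 -0.070), in cohort B alone (Oas1c -0.20, Smim4 -0.056) or without a mouse (Adar -0.045 to 0.0023, Oas1c -0.031 to 0.073, Tyk2 -0.13 to 0.019, Smim4 -0.018 to 0.069). No paired analysis was possible because no mouse number occurs in both genotypes. Depth limits the interferon genes and, in wild-type mice, Ifit1. It also limits genes with lower wild-type counts than Ifit1, such as Zbp1, Mx1, Oas1b, Oasl1, Kif20b, Ifit1bl2 and Cgas.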
